A study of Mus musculus with 8 samples.

Results

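The amino acid transporters described here are 10 solute carriers of the plasma membrane: Slc1a4, Slc1a5, Slc3a2, Slc7a1, Slc7a5, Slc7a11, Slc38a1, Slc38a2, Slc38a4 and Slc6a9. They were taken by name, and 9 of the 10 were measured, out of 17097 genes in all. Slc1a4 was not analysed here. The 9 genes were covered by 18 of the 28898 probe sets that carry a single gene symbol, and each gene was read from whichever of its probe sets was brightest on average. The arrays held RNA of dermal fibroblasts, 1 array per animal, from 4 young mice aged 2 months and 4 old mice aged 18 months, with no treatment in either group. Strain and sex are not given in the labels. Cells of both groups were sorted as Pdgfra+ CD34+ and lacking CD45, CD117, CD24, CD31 and EpCam. The comparison of old with young asks how transcript levels of these fibroblasts differ with age.

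Cells take up most amino acids through carriers that couple or exchange their substrates. Slc3a2 is a heavy chain that brings light chains such as Slc7a5, an exchanger of large neutral amino acids, and Slc7a11, the cystine and glutamate exchanger, to the cell surface. Slc1a5 exchanges small neutral amino acids and glutamine, the Slc38 carriers take up neutral amino acids with sodium, Slc7a1 carries arginine and lysine, and Slc6a9 carries glycine. Several of them are known targets of ATF4, the transcription factor that answers amino acid shortage, and fibroblasts use the imported glycine, proline and lysine for collagen.

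In old fibroblasts Slc1a5 was 1.77-fold higher, whereas Slc6a9 was 1.45-fold and Slc7a1 1.31-fold lower. The other 6 measured carriers did not pass the test, and 3 of them, Slc7a11, Slc38a1 and Slc38a4, read no higher than receptors that dermal fibroblasts are not thought to make. In the limma fit of all genes, at a Benjamini-Hochberg adjusted p of 0.05, 1 member was thus higher and 2 lower. Among all 17097 genes 9.87% were higher and 7.66% lower, so calls were common in this comparison. Higher genes made up 56.3% of all calls, and 45.2% after a further quantile normalization. The median log2 difference of the 9 measured members was -0.03, against 0.01 over all genes.

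All values are normalized log2 levels, and a level of one gene is not compared with that of another, since probes differ in brightness. As a reference for dim signals, the 95th percentile of the mean level over 82 olfactory, vomeronasal and taste receptor genes was 5.32. Of the sort gate, Pdgfra (8.36 in young, 8.52 in old) and Cd34 (11.73 and 11.68) lay above it, and so did Cd24a (7.27 and 6.60). Ptprc, Kit and Epcam lay below it in both groups. Pecam1 lay below it by its mean over all arrays, with 5.07 in young and 5.435, above the reference, in old. No sort gate gene passed the test. All 10 fibroblast markers lay above the reference, with 0 higher and 1 lower in old. Of 12 measured keratinocyte markers 10 did so too, with 3 higher and 2 lower in old and a mean level of 6.76 to 7.90 in young and 7.33 to 8.44 in old arrays; Cdh1 and Lor lay below it. The part of these markers in the differences of the transporters was not tested. Leukocyte markers (3 of 11 above the reference), endothelial markers (2 of 8), melanocyte and Schwann cell markers (1 of 6), muscle and mural cell markers (2 of 7) and adipocyte markers (1 of 4) were mostly dim. Some markers of these lists passed the test, of which Csf1r and Egfl7 lay above the reference and the others below it by their mean over all arrays. The leukocyte genes Lyz2 (1.08) and Tyrobp (0.67) were higher in old. Their means rose from 4.72 to 5.80 and from 4.795 to 5.46, so that both lay above the reference in old. Csf1r, a receptor of macrophages, fell from 8.57 to 6.65 (limma adjusted p = 5.9e-06). Of the endothelial genes, Tie1 (0.35) was higher and Egfl7 (-0.30) lower. The melanocyte gene Mlana (-0.565) was lower too. Control probe sets that match no transcript and are rich in G and C read lower in old (5.10 to 5.63) than in young arrays (5.76 to 6.02), a difference of -0.51 in their mean, here called the background index. A fit that holds the index as a covariate is given for each member called and for each gene list. Young replicate 1 stood apart in the BioB spike-in controls, with a mean of 9.64 against 6.99 to 7.55 on the other arrays, and old replicate 4 had the highest array median (5.34 against 5.19 to 5.27). In bulk RNA of this kind, a smaller number of cells of a type and less RNA per cell cannot be told apart.

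Slc1a5 imports glutamine and other neutral amino acids in exchange for others, and it was the member with the largest difference. Its log2 level was 8.55, 8.62, 8.71 and 8.93 in young replicates 1 to 4 and 9.56, 9.52, 9.35 and 9.68 in old replicates 1 to 4. Each old value lay above each young value. The group means were 8.70 ± 0.17 and 9.53 ± 0.14 (SD, n = 4 each). The log2 difference was 0.82 ± 0.10 (SE; limma adjusted p = 4.8e-04, 95% interval 0.61 to 1.04). The second probe set of Slc1a5 went the same way, from a mean of 8.80 to 9.37, a log2 difference of 0.57 ± 0.11 (SE; limma adjusted p = 0.00581 over all probe sets). With the background index in the fit the log2 difference was 0.55 (limma adjusted p = 0.197). The mean level of the keratinocyte markers was 7.19, 6.76, 7.90 and 6.94 in young replicates 1 to 4 and 7.33, 7.65, 7.97 and 8.44 in old replicates 1 to 4, and its part in the difference of Slc1a5 was not tested.

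**Figure D1:**
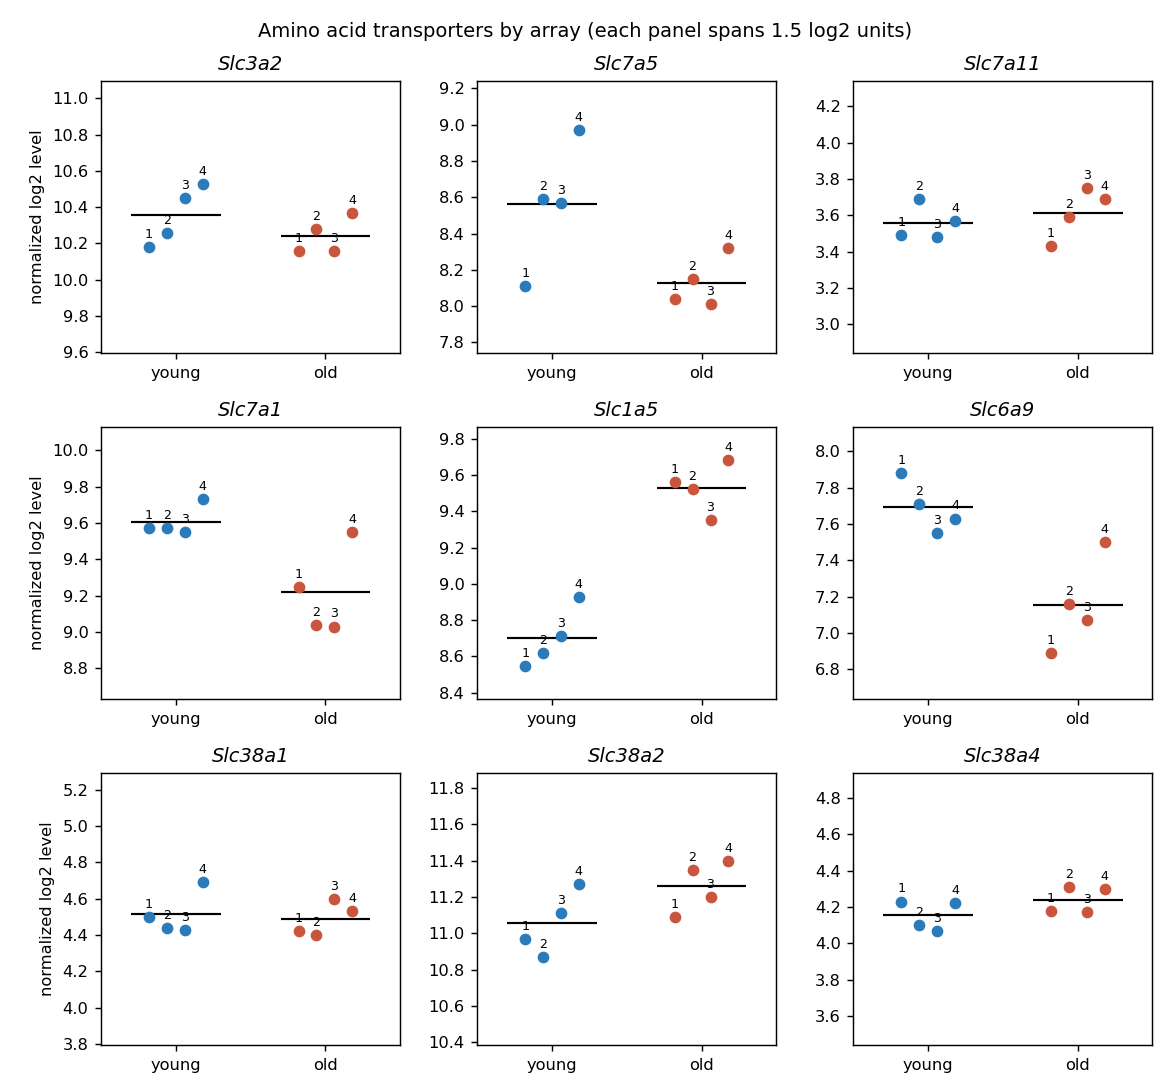
Normalized log2 level (vertical axis) of each of the 9 measured transporters by age group (horizontal axis); points are arrays with their specimen number, and bars are group means. The 4 old values of Slc1a5 (9.35 to 9.68) lie above all young values (8.55 to 8.93), and those of Slc6a9 (6.89 to 7.50) lie below all young values (7.55 to 7.88).

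Slc6a9, the glycine transporter GlyT1, was lower in old fibroblasts. Its log2 level was 7.88, 7.71, 7.55 and 7.63 in young replicates 1 to 4 and 6.89, 7.16, 7.07 and 7.50 in old replicates 1 to 4. The groups did not overlap, although old replicate 4 came within 0.05 of the lowest young value. The log2 difference was -0.54 ± 0.12 (SE; limma adjusted p = 0.0152, 95% interval -0.82 to -0.26). Without old replicate 4 it was -0.65 (limma adjusted p = 0.0035). The second probe set differed by -0.38 ± 0.12 (SE), and its limma adjusted p over all probe sets was 0.0607. With the background index in the fit the log2 difference of Slc6a9 was -0.36 (limma adjusted p = 0.638). Of the 9 members 1 did not overlap upward and 1 downward, against 11.7% and 9.66% of all genes.

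Slc7a1, the main carrier of arginine and lysine, was lower as well, with a call that most single arrays left out ended. Its log2 level was 9.57, 9.57, 9.55 and 9.73 in young replicates 1 to 4 and 9.25, 9.04, 9.03 and 9.55 in old replicates 1 to 4. Old replicate 4 equalled the lowest young value, and the other 3 old values lay below all young values. The log2 difference was -0.39 ± 0.11 (SE; limma adjusted p = 0.0402). Of the 8 fits that each left out 1 array, 1 kept the call, the fit without old replicate 4 (-0.50, limma adjusted p = 0.00488). Without any other single array the adjusted p lay between 0.0611 and 0.105, with differences of -0.41 to -0.33. Among its 3 probe sets, the second differed by -0.44 (limma adjusted p = 0.0358) and the third by -0.28 (limma adjusted p = 0.105). With the background index in the fit the log2 difference was -0.62 (limma adjusted p = 0.249).

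Promoters of the transporters were searched for TGATGNAA, the core of the element through which ATF4 and C/EBP factors act, and for the cyclic AMP element TGACGTCA, on both strands. The RefSeq promoter table (GRCm38.p6) held windows of 250 bases before to 50 after a start for 7 of the 10 genes, 12 windows in all. TGATGNAA was found in the windows of 2 of these genes, Slc1a4 and Slc7a11, and in 3.97% of all 32851 windows. TGACGTCA was found in none of the 12 and in 1.79% of all windows. Upstream bases are shown for Slc7a11, which held 2 matches, and for the outermost starts of Slc7a1 (2 starts listed) and Slc6a9 (3 starts listed), which were lower in old and held none. The matches are in capitals. They read TGATGCAA on the gene's strand from 66 to 59 bases before the start, and TTGCATCA, the same letters on the other strand, from 47 to 40 bases before it.
Slc7a11, chr3:50443614-50443863, minus strand: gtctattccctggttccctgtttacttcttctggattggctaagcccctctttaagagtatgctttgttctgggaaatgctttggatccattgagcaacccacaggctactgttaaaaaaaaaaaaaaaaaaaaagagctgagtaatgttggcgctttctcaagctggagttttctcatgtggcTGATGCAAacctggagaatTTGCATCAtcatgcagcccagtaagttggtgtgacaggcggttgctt
Slc7a1, chr5:148399905-148400154, minus strand: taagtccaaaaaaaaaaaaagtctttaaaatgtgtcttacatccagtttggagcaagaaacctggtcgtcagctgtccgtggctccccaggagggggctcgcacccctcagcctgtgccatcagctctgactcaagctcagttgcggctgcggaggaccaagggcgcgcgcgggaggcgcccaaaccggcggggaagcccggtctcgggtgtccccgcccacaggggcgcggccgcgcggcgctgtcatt
Slc6a9, chr4:117835008-117835257, plus strand: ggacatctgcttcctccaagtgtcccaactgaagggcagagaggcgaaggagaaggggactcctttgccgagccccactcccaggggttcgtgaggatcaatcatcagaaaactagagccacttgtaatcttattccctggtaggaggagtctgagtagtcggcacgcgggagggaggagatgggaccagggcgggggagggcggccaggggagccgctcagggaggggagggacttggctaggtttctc
A match describes these letters in these windows, not a site in use. The G and C share of the upstream bases shown was 43.2% for Slc7a11, 62.4% for Slc7a1 and 60.4% for Slc6a9.

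The heavy chain Slc3a2 did not pass the test. It had log2 levels of 10.18, 10.26, 10.45 and 10.53 in young replicates 1 to 4 and 10.16, 10.28, 10.16 and 10.37 in old replicates 1 to 4. The groups overlapped, and the log2 difference was -0.11 ± 0.09 (SE; limma adjusted p = 0.461, 95% interval -0.31 to 0.09).

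Its partner Slc7a5, which exchanges leucine and other large neutral amino acids for glutamine, had log2 levels of 8.11, 8.59, 8.57 and 8.97 in young replicates 1 to 4. The old values were 8.04, 8.15, 8.01 and 8.32. Young replicate 1 lay among the old values, and the other 3 young values lay above all old values. The log2 difference was -0.43 ± 0.16 (SE; 95% interval -0.78 to -0.08), which did not pass over all genes (limma adjusted p = 0.0904). Without young replicate 1, the array with the high BioB controls, it was -0.58 (limma adjusted p = 0.0113), and without young replicate 4 it was -0.29 (limma adjusted p = 0.186). None of the 7 fits without another single array passed (limma adjusted p = 0.093 to 0.186). The difference was -0.79 with the background index in the fit (limma adjusted p = 0.283). Slc7a5 passed in 5 of 18 alternative fits, among them a further quantile normalization (-0.49, limma adjusted p = 0.0462) and array weights (-0.54, limma adjusted p = 0.0261). The young SD of 0.35 was wider than the old SD of 0.14.

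Slc7a11, the other light chain followed here, imports cystine for glutathione synthesis. It read 3.48 to 3.69 in young and 3.43 to 3.75 in old arrays, below the reference of 5.32 on every array. Its log2 difference of 0.06 (limma adjusted p = 0.709) is therefore one between dim signals, and both of its probe sets were dim. The change of Slc3a2 was set against that of Slc7a5 by an exact 2-sided permutation test over arrays, adjusted over 5 pairs of related members. The change of Slc3a2 minus that of Slc7a5 was 0.32 log2 units (exact p = 0.0571, adjusted p = 0.214). The 4 other pairs each held a dim member, Slc7a11, Slc38a1 or Slc38a4, so their values say nothing on the transcripts and are not given. With 4 arrays against 4 this test cannot give a p below 0.0286.

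The 3 Slc38 carriers, sodium-coupled importers of glutamine, alanine and other neutral amino acids, are neighbours on chromosome 15 in the order Slc38a1, Slc38a2, Slc38a4 among protein-coding genes. Only Slc38a2, the carrier that responds to amino acid shortage, was above the reference. Its log2 level was 10.97, 10.87, 11.11 and 11.27 in young replicates 1 to 4 and 11.09, 11.35, 11.20 and 11.40 in old replicates 1 to 4. The groups overlapped, and the log2 difference of 0.20 ± 0.10 (SE) did not pass (limma adjusted p = 0.208, 95% interval -0.02 to 0.43).

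The 3 probe sets of Slc38a2 differed in size and call. The brightest, used above, and the second (0.29 ± 0.12 SE, limma adjusted p = 0.125) did not pass, while the dimmest did. That probe set read 8.52, 8.36, 8.36 and 8.79 in young replicates 1 to 4 and 8.84, 9.03, 8.93 and 9.43 in old replicates 1 to 4. Each old value lay above each young value, with a log2 difference of 0.55 ± 0.14 (SE; limma adjusted p = 0.0227).

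Slc38a1 read 4.43 to 4.69 in young and 4.40 to 4.60 in old arrays, and Slc38a4 read 4.07 to 4.23 and 4.17 to 4.31. All of these values lay below the reference. The log2 differences were -0.03 for Slc38a1 (limma adjusted p = 0.861) and 0.08 for Slc38a4 (limma adjusted p = 0.449). Because their probe sets were dim, differences in the transcripts could not be seen at this signal.

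Over all 18 probe sets of the members, 12 lay above the reference, and these belonged to 6 genes. Of the 18, 3 were higher and 3 lower by limma over all probe sets, where 9.63% of all probe sets were higher and 7.16% lower. Of the 6 genes, 4 had more than 1 probe set, and the probe sets of each of these 4 went in the same direction. They disagreed in call for Slc7a1 (2 of 3 lower), Slc6a9 (1 of 2 lower) and Slc38a2 (1 of 3 higher).

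**Figure D2:**
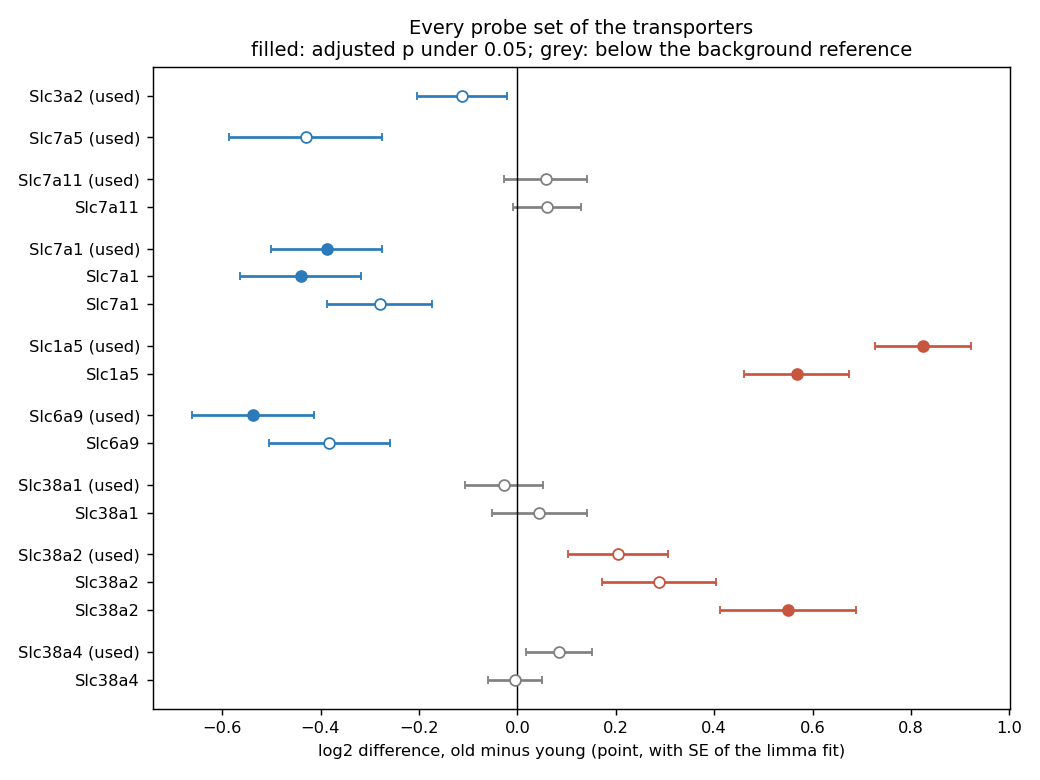
Log2 difference, old minus young (horizontal axis), of each of the 18 probe sets (rows, by gene), with the SE of the limma fit as bars; filled points passed an adjusted p of 0.05 and grey points lay below the background reference. The probe sets of Slc1a5 (0.82 and 0.57) both passed, whereas 1 of the 3 of Slc38a2 (0.55) did.

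Within an age group the brighter members tended to be highest on the same array. The share of all genes that were highest on that array was not counted, so this is not read as a trait of the members. Of the 6 members above the reference, 5 had their highest young value in young replicate 4, the exception being Slc6a9, and 6 had their highest old value in old replicate 4. Slc7a5 spread most among young animals, from 0.45 below to 0.41 above the group mean. Slc6a9 and Slc7a1 had their widest deviations among old animals in old replicate 4, at 0.34 and 0.33 above the mean. After each array was centred on its median, old replicate 4 was the highest old array for 4 of the 6 and young replicate 4 was the highest young array for 5 of the 6. Mice were sacrificed in pairs of a young and an old animal per day, and which animals shared a day is not stated.

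**Figure D3:**
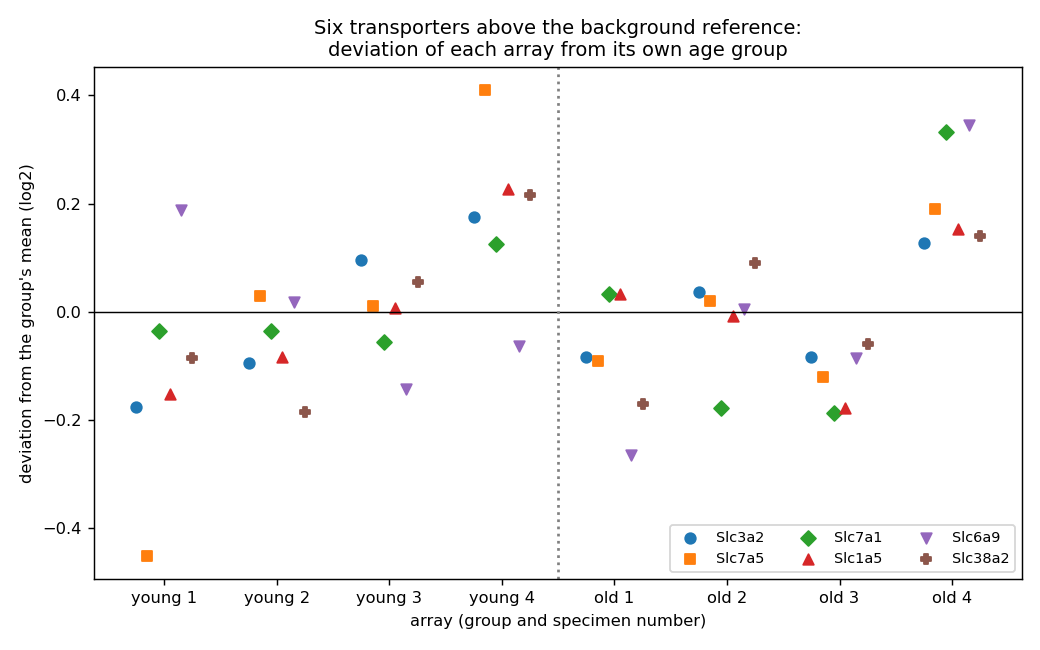
Deviation of each array from the mean of its own age group in log2 units (vertical axis) by array (horizontal axis) for the 6 transporters above the background reference, 1 marker shape per gene. Of the 6 genes, 5 are highest in young 4 among young arrays and 6 are highest in old 4 among old arrays. The share over all genes was not counted.

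The genes whose pattern lay closest to that of Slc1a5 were sought among 9447 genes above the reference, by the root mean square difference of gene-centred log2 values over the 8 arrays. They were Bambi (0.09), a decoy receptor of TGF-beta signalling, Nat8 (0.09), an acetyltransferase, Stk17b (0.10), a kinase, Riox2 (0.10), an oxygenase, and Rap1gap2 (0.10), a GTPase activator. All 5 were higher in old, by 0.72 to 0.87 log2 units. The measure takes in the age difference itself, so these genes share it with Slc1a5 by the way they were chosen.

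Among 34 measured amino acid transporters other than the members, 1 was higher, 2 were lower and 31 did not pass. Their median log2 difference was -0.02. They are carriers of the plasma membrane, apart from Slc6a17 of synaptic vesicles and Slc7a14 of lysosomes, and neither of these passed. Over all genes 9.87% were higher and 7.66% lower. The taurine transporter Slc6a6 had the largest difference, 3.49-fold higher. It read 6.28, 6.72, 5.95 and 6.65 in young replicates 1 to 4 and 7.59, 8.47, 8.34 and 8.42 in old replicates 1 to 4, without overlap. Its log2 difference was 1.81 ± 0.22 (SE; limma adjusted p = 5.3e-04), and it was 2.13 with the index in the fit (limma adjusted p = 0.0664). Slc43a1, a carrier of large neutral amino acids like Slc7a5, was lower by -0.86 (limma adjusted p = 0.0063), and the glutamate transporter Slc1a3 by -0.40 (limma adjusted p = 0.00822), though from 4.50, below the reference. In the limma fit with the background index 0 of the 34 passed, and at an unadjusted p under 0.05 the counts were 2 higher and 4 lower. Of these 34 genes, 10 lay above the reference.

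In a list of transporters of lysosomes and the Golgi, those that passed were lower. It also held the synaptic vesicle carriers Slc32a1, Slc17a6 and Slc17a7, none of which passed. Of 11 measured, 4 were lower, 0 higher and 7 did not pass by limma, with a median of -0.10, and at an unadjusted p under 0.05 the counts were 5 lower and 1 higher. Over all genes 7.66% were lower. The count of lower genes was 2 without young replicate 1, 2 or 4, and 1 with the background index in the fit. Slc36a1, which exports small amino acids from lysosomes, differed by -0.89 (limma adjusted p = 0.00103), and by -0.58 with the index in the fit (limma adjusted p = 0.306). Slc38a10, a Slc38 family member named here for its list, read 11.68 to 11.77 in young and 10.86 to 11.16 in old arrays and differed by -0.73 (limma adjusted p = 2.0e-04). It kept its call with the background index in the fit (-0.80, limma adjusted p = 0.04999). The lysosomal exporter of cationic amino acids Slc66a1 (-0.56, limma adjusted p = 0.0241) and the cysteine importer Mfsd12 (-0.19, limma adjusted p = 0.0454) lost their calls when single arrays were left out, 3 of the 8 for Slc66a1 (young replicates 1, 2 and 4, adjusted p up to 0.0662) and all 8 for Mfsd12 (up to 0.111).

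Of 11 measured mitochondrial amino acid carriers, 1 was higher, 2 were lower and 8 did not pass, with a median of -0.16. Over all genes 9.87% were higher and 7.66% lower. With the background index in the fit 0 of the 11 passed by limma (1 lower and 0 higher at an unadjusted p under 0.05). The sideroflexins Sfxn2 (-0.42, limma adjusted p = 0.0128) and Sfxn3 (0.32, limma adjusted p = 0.0253) differed in opposite directions. Slc25a38, which brings glycine into mitochondria, differed by -0.26 (limma adjusted p = 0.0295), the direction of the plasma membrane glycine carrier Slc6a9. In 4 of the 8 fits that each left out 1 array Sfxn3 did not pass (adjusted p up to 0.0649), and in 5 of them Slc25a38 did not (up to 0.0812).

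Of 34 measured genes of the amino acid response driven by ATF4, the members left out, 12 were lower, 0 higher and 22 did not pass by limma, with a median of -0.22. At an unadjusted p under 0.05, 17 were lower and 1 higher. Over all genes 7.66% were lower. The fit with the background index left 3 of the 34 lower. The 6 largest decreases were those of the folate enzyme Aldh1l2 (-3.71), the proline synthesis enzyme Aldh18a1 (-1.04), asparagine synthetase Asns (-0.84), the glycyl-tRNA synthetase Gars (-0.71), Pck2 (-0.70) and the translation inhibitor Eif4ebp1 (-0.70). Slc1a5 was higher in the same arrays. The transcript of Atf4 itself was at 11.34 in young and 11.44 in old (limma adjusted p = 0.310). Among the 6 named, Aldh1l2, Aldh18a1 and Gars kept their calls in all 18 alternative fits, and the other 3 lost theirs with the background index in the fit.

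A list of amino acid sensing held genes of the mTORC1 pathway and Eif2ak4, a kinase outside that pathway. Of its 26 measured genes, 3 were higher, 2 lower and 21 did not pass, with a median of 0.02. These shares are near those over all genes (9.87% higher and 7.66% lower), and with the background index in the fit 0 of the 26 passed by limma (1 higher and 0 lower at an unadjusted p under 0.05). Eif2ak4, the kinase GCN2 that senses uncharged tRNA, was higher by 0.92 (limma adjusted p = 6.9e-04). Rragc (0.25) and Wdr59 (0.24) were higher too, though Wdr59 lay below the reference (4.57 in young and 4.81 in old). The lysosomal scaffold subunits Lamtor2 and Lamtor4 were lower (-0.27 for both). When each array was left out in turn, the call was lost for 3 of the 8 arrays in Rragc (adjusted p up to 0.0638), 6 in Wdr59 (up to 0.0874), 1 in Lamtor2 (0.0504) and 7 in Lamtor4 (up to 0.121).

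Of 9 measured genes of glutathione synthesis and glutamine use, 3 were higher, 0 lower and 6 did not pass by limma, with a median of 0.22. At an unadjusted p under 0.05, 5 were higher and 0 lower. Glutathione reductase Gsr differed by 0.57 (limma adjusted p = 0.00424), the glutamate-cysteine ligase subunit Gclm by 0.38 (limma adjusted p = 0.022) and glutamate dehydrogenase Glud1, which uses the glutamate made from imported glutamine, by 0.34 (limma adjusted p = 0.00693). The call of Gclm was lost without young replicate 1, young replicate 2 or old replicate 4 (adjusted p up to 0.0588). In the limma fit with the background index 0 of the 9 passed (1 higher and 0 lower at an unadjusted p under 0.05), with differences of 0.58 for Gsr, 0.01 for Gclm and 0.16 for Glud1. Over all genes 9.87% were higher.

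**Figure D4:**
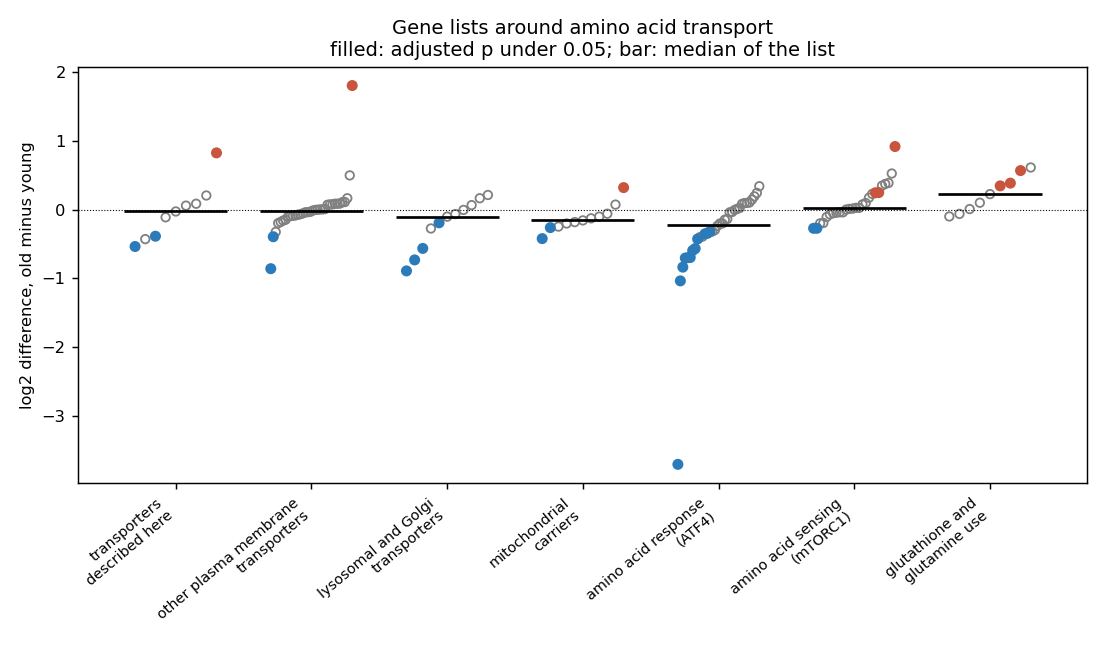
Log2 difference, old minus young (vertical axis), of the 9 transporters and of the genes of 6 related lists (horizontal axis); filled points passed an adjusted p of 0.05, and bars are medians. The amino acid response list has 12 lower genes and the lowest median (-0.22), and Slc6a6 (1.81) is the highest point.

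With the background index in the fit, 0 of the 9 members passed by limma, and 1 was higher and 2 lower at an unadjusted p under 0.05. Over all genes that fit left 0.404% higher and 0.591% lower. The index did not overlap between the age groups, so its effect and that of age can hardly be told apart, and the SE of Slc1a5 went from 0.10 to 0.17. The 6 members above the reference kept their direction in all 18 alternative fits. Some of these fits cannot change the log2 difference: those with a specimen number block, without dim genes, or with other variance settings of limma. For Slc3a2 and Slc7a5, each with a single probe set, the other probe set choices repeat the same difference too. In such fits a kept direction adds nothing.

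**Figure D5:**
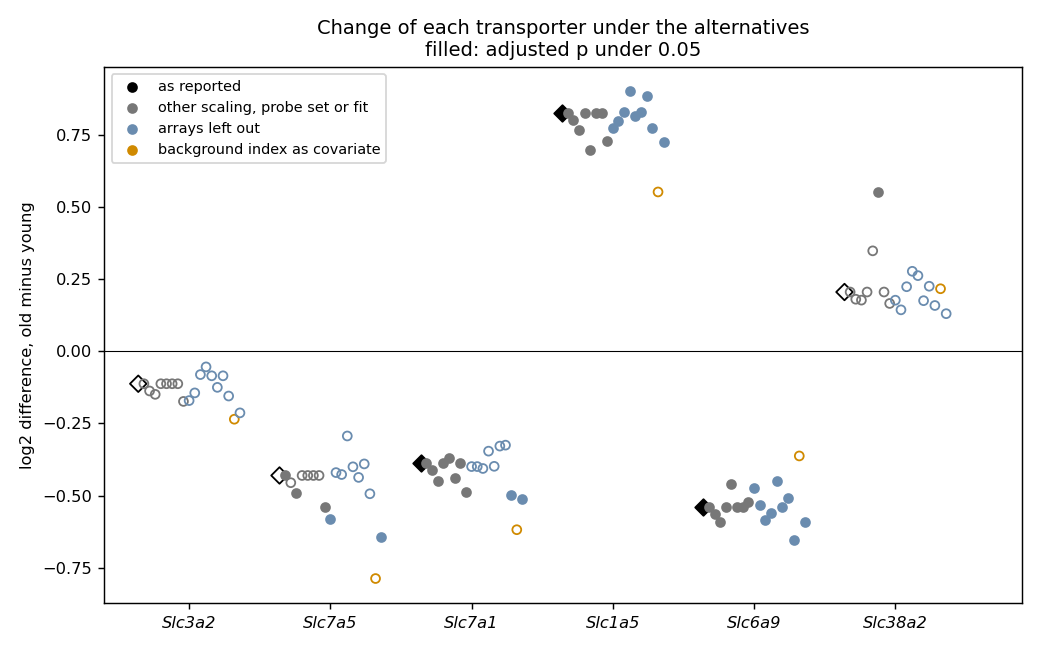
Log2 difference, old minus young (vertical axis), of the 6 transporters above the background reference (horizontal axis) as reported (diamonds) and under 18 alternatives (circles); filled points passed an adjusted p of 0.05. Slc1a5 and Slc6a9 passed in 17 of the 18 alternatives, Slc7a1 in 10 and Slc7a5 in 5.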

How the data were processed

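The authors deposited log2 values per probe set, made with RMA and the R package affy, per the submitters' processing notes (versions not given in the sources used here). RMA makes array distributions alike, which hides a shift shared by most transcripts. Gene names came from the platform annotation, with symbols updated through RefSeq gene IDs. Of 45141 probe sets 28898 had 1 symbol, 551 had several and 15692 had none, and the last 2 classes were not used. Of the 28898, 28689 matched a RefSeq gene ID.

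The 17097 genes were fitted together in R 4.3.3 by the lmFit and eBayes functions of limma 3.58.1, old against young without further terms, and 2-sided p-values were adjusted by Benjamini-Hochberg. The fit was tested on simulated data. Alternatives were other scalings, probe set choices, filters, array weights and each array left out. The planned comparison of Slc1a4 with Slc1a5 was not run. Exact permutation tests used scipy 1.17.1 in Python 3.11.15, and figures matplotlib 3.10.9. The number of arrays limits the precision, and no read depth applies. The replicates are separate animals.

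The members and lists were chosen with earlier results of these data known. Named genes are the members, up to 6 called genes per list and direction with the largest change, the 5 profiles nearest to the member of smallest p, and the sort gate genes. Other genes (Atf4, Cdh1, Lor, Lyz2, Tyrobp, Csf1r, Tie1, Egfl7 and Mlana) were named after their values were seen. Slc6a17, Slc7a14, Slc32a1, Slc17a6 and Slc17a7 are named for the membranes they act on. A covariate for non-specific background, the mean of 11 control probe sets with 15 to 25 G and C bases, and leaving out young replicate 1 with old replicate 4 were added after seeing the data.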

Additional observations from a re-analysis of the deposited data

Results flagged for a closer look

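In 6 of 76 groups of 4 arrays looked at, a single array lay far from the other 3 (its gap to the nearest of them, as a share of the group's range, passed Dixon's 95% critical value), and chance gives about 1 in 20 such groups. Among the members this was Slc7a1, with young replicate 4 at 9.73 above the other young arrays. The others were Slc6a6, whose lowest old array was at 7.59, Aldh18a1, whose highest old array was at 8.16, Glud1, with its highest young array at 10.13, Rragc at 9.88 and Rap1gap2 at 6.22, both the highest among young.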

How the results depend on the processing

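Of 17097 genes, 2998 were called, and single arrays left out gave 2200 to 2927. With the background index as a covariate 170 were called (69 higher, 101 lower), with 0 members by limma (1 higher and 2 lower at an unadjusted p under 0.05). Among the 125 genes of the 6 lists 8 were higher and 22 lower; with that covariate 0 were higher (6 at an unadjusted p under 0.05) and 4 lower (16). The 8 higher became 4 without young replicate 1 and old replicate 4, and 4 to 11 with single arrays left out (4 without young replicate 1 or 2, 5 without young replicate 3). The cause was not tested. Of the calls, 56.3% were higher as reported, 49.5% after median centring and 45.2% after a further quantile normalization. The dim Slc38a1 turned from -0.03 to 0.0088 (mean over probe sets), 0.045 (most variable probe set) and 0.0888 (covariate), and ran from -0.065 to 0.031 with single arrays left out. With the specimen number as a replicate block 3106 genes were called and 4 members passed, Slc7a5 (adjusted p = 0.0204) being added. Same-numbered arrays correlated in their deviations at 0.285, 0.052, -0.044 and 0.224. Young replicates 1 and 4 correlated best with the old array of the same number, young replicates 2 and 3 with old replicates 3 and 4. These values do not settle whether the numbers pair the animals, so the reported fit has no block. The difference between the changes of Slc3a2 and Slc7a5 kept its direction under all 12 alternatives. Of these, the 4 with all arrays were tested and did not pass (exact permutation, adjusted p = 0.0952 to 0.21). Median centring and the other probe set choices could not change it from 0.3175. Centring cancels within an array, and both genes have a single probe set. Where the difference was the same, its adjusted p differed only through the other pairs.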
